A study of Mus musculus with 4 samples.

Results

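The genes described here are the potassium channel genes of the mouse, taken as every gene whose annotated symbol starts with Kcn. Of 18193 genes with a probe set that names 1 gene, 84 carried such a symbol, and for each the probe set with the highest mean signal over the arrays was used. They fell into 22 genes for pore-forming subunits of voltage-gated (Kv) channels, 9 Kv modifier subunits, 15 inward rectifiers (Kir), 12 leak channels with a pair of pores per subunit (K2P), 8 calcium-activated channels and their relatives, 15 auxiliary subunits and 3 noncoding RNAs named after a channel gene.

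Gene expression was measured on 4 Affymetrix Mouse Genome arrays, 1 each for FoxO6-/- brain, WT brain, FoxO6-/- mandible and maxilla and WT mandible and maxilla (the last pair is called jaw here). The labels give postnatal day 0 for all 4 samples, whereas the methods speak of embryos. In the knockout the coding region of the transcription factor FoxO6 was exchanged for a LacZ and neomycin resistance cassette in all cells of the animal, and the WT groups carry the intact gene. RNA of 4 animals was combined for each jaw array, a pooling that the methods also give for WT and mutant mice with no tissue named, and they mention both null and heterozygous animals among the mutants. With 1 array per genotype and tissue, the 2 arrays of a tissue serve as its replicates although they differ in genotype, and a comparison of genotypes has no replicate. No probe set was named Foxo6, so the genotype labels were not checked on the arrays.

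Potassium channels let potassium leave the cell along its gradient and thereby set the resting potential, shape the action potential and time the interval before the next one. Kv channels open when the membrane depolarises, Kir channels pass current best near rest, K2P channels carry the steady leak, and calcium-activated channels couple the potential to intracellular calcium. Auxiliary subunits do not form a pore but set how fast, at which voltage and in which membrane a channel works. Neurons use the widest range of these genes, while muscle, vessel walls, secretory epithelia and bone cells each rely on a smaller set.

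Signals were MAS5 values, a brightness per probe set on a linear scale with the same trimmed mean on each array. A floor of 101, the median of all signals, was set for the test, because no detection calls were in the values. Signals at or above it were recorded for 48 and 49 of the 84 genes in FoxO6-/- and WT brain, against 26 and 32 in FoxO6-/- and WT jaw. The mean over the arrays reached the floor for 44 genes, down to Kcnv1 at 101.1, and the next gene, Kcnj12, had 91.6. Of these 44, 27 were at or above the floor in both tissues, 16 reached it through brain alone and 1 through jaw alone. The 40 genes below the floor were 7 Kv pore genes, 7 modifiers, 9 inward rectifiers, 7 leak channels, 3 of the calcium-activated group, 6 auxiliary subunits and 1 noncoding RNA, and 31 genes stayed below it in the mean of each tissue. Neuron markers summed to 70445 and 55474 in FoxO6-/- and WT brain, against 4374 and 6508 in FoxO6-/- and WT jaw. Enamel markers summed to 162 and 83.6 in FoxO6-/- and WT brain, against 9679 and 6320 in FoxO6-/- and WT jaw. Skeletal muscle, bone and cartilage markers were not confined to jaw. Those of skeletal muscle summed to 51696 and 60342 in FoxO6-/- and WT brain, against 128672 and 125614 in FoxO6-/- and WT jaw. Bone markers summed to 19789 and 22185 in FoxO6-/- and WT brain, against 33480 and 31455 in FoxO6-/- and WT jaw. Cartilage markers summed to 46691 and 25163 in FoxO6-/- and WT brain, against 24763 and 39943 in FoxO6-/- and WT jaw.

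More potassium channel genes were called higher in brain than higher in jaw. In a limma fit of the log2 signals on tissue plus genotype, 11 of the 44 genes were called higher in brain (25%) and 2 higher in jaw (4.55%) at an adjusted p under 0.05, where 8.73% and 6.48% of all 12569 genes tested were called in those directions. The median log2 ratio of brain over jaw was 0.53 over all 84 genes, tested or not, with 57 positive, against -0.07 over all 18193 genes, and 0.88 over the 44, against -0.05 over all genes tested. By size, 13 of the 44 were at least 2-fold higher in brain in each genotype (8.46% of all genes) and 3 at least 2-fold higher in jaw (5.37%). Both brain arrays lay above both jaw arrays for 29 of the 44 genes (29.1% of all genes), and both jaw arrays above both brain arrays for 7 (36.4% of all genes). A gene that passed the floor through brain alone had to differ, and among the 27 genes at or above the floor in both tissues 2 were called higher in brain (7.41%, against 5.75% of all such genes) and 1 higher in jaw (3.70%, against 5.05%), shares near the background. The calls also rested on the floor, since with no floor limma called 0 of all 18193 genes, at a smallest adjusted p of 0.118. At an unadjusted limma p under 0.05, 25 potassium channel genes were then higher in brain and 7 higher in jaw. The share of all genes at that unadjusted p with no floor was not counted. In whole tissue, fewer cells of a type and less RNA per cell cannot be told apart.

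**Figure D1:**
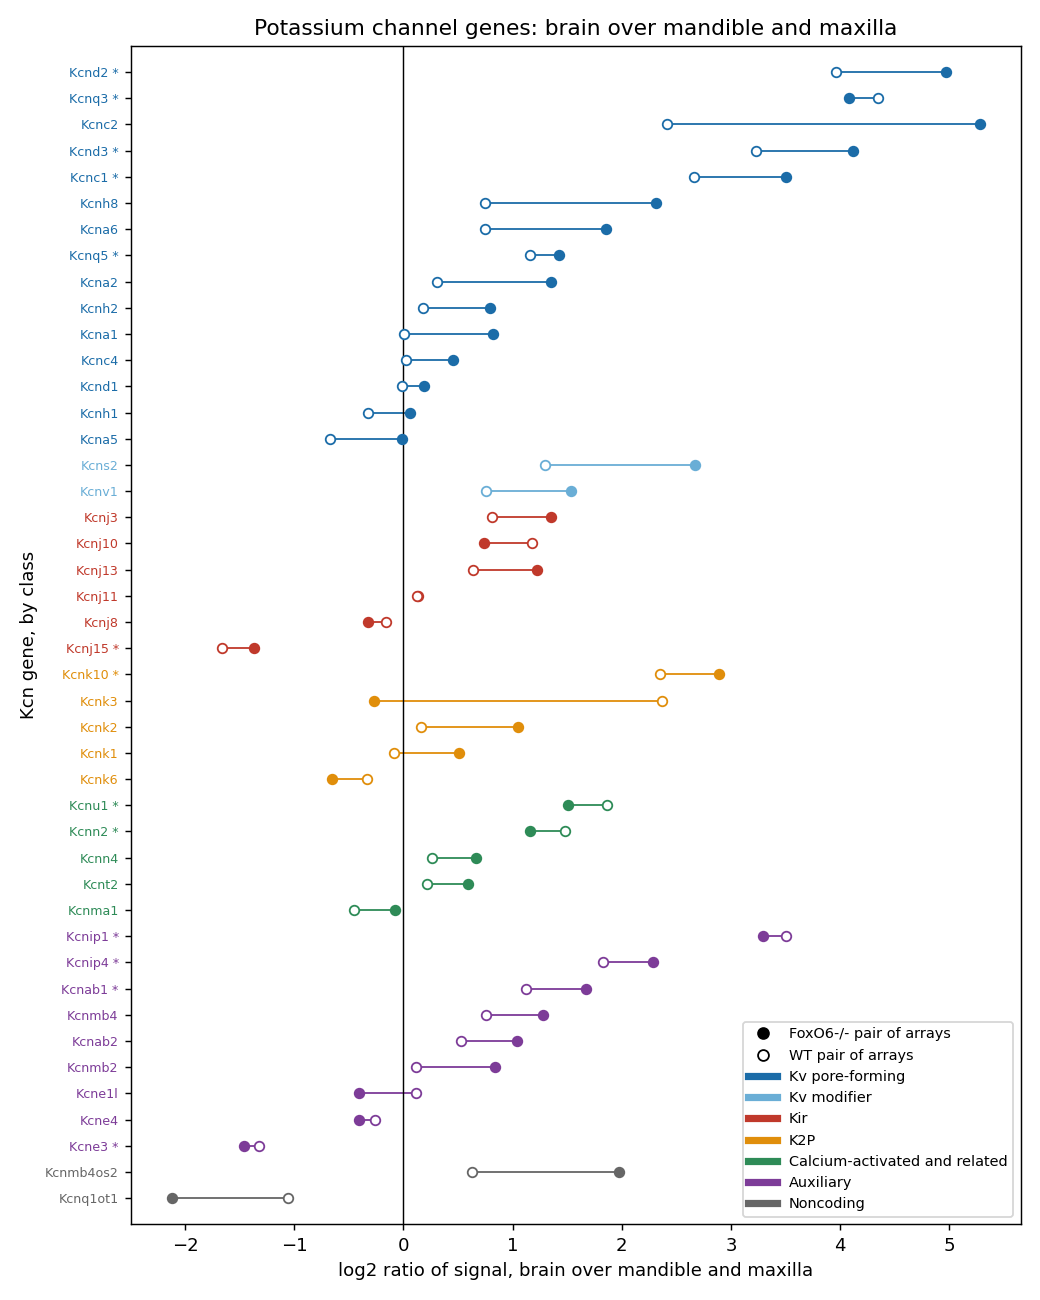
Log2 ratio of MAS5 signal, brain over jaw (x axis), for the 44 potassium channel genes whose mean signal reached the floor (y axis, by class), with filled points for the FoxO6-/- pair of arrays and open points for the WT pair. Stars mark the 13 genes called by limma. Kcnd2, Kcnq3, Kcnc2, Kcnd3 and Kcnip1 stand furthest to the right and Kcnq1ot1, Kcnj15 and Kcne3 furthest to the left. For 32 of the 44 genes the FoxO6-/- point lies right of the WT point, and the share of all genes with that order was not counted.

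The Kv4 (Shal) channels had the highest median log2 ratio of brain over jaw among the subfamilies, 3.67 over 3 genes. Kv4 channels carry the fast, transient A-type current of neuronal dendrites and of heart muscle, and they work in a complex with cytoplasmic KChIP subunits (the Kcnip genes) and membrane-spanning DPP proteins. Kcnd2, which encodes Kv4.2, had signals of 2008 and 1599 in FoxO6-/- and WT brain, against 64.0 and 103 in FoxO6-/- and WT jaw. Its log2 ratio was 4.47 ± 0.31 (SE, 2 arrays per tissue; adjusted p = 0.0109), and 2 further probe sets with means above the floor gave 3.53 and 3.67. Kcnd3, for Kv4.3, had 1376 and 1148 in FoxO6-/- and WT brain, against 79.3 and 122 in FoxO6-/- and WT jaw, a log2 ratio of 3.67 ± 0.28 (adjusted p = 0.0128). For both genes the lower brain array stood far above the higher jaw array, and the jaw signals lay around the floor. Kcnd1, for Kv4.1, the remaining member, showed no such gap, with 169.7 (FoxO6-/-) and 163 (WT) in brain and 149 (FoxO6-/-) and 164 (WT) in jaw and a log2 ratio of 0.09 ± 0.16 (adjusted p = 0.725).

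Of the KChIP subunits, which bind the N-terminus of Kv4 channels, raise their number at the surface and sense calcium, Kcnip1 had signals of 581 and 479.8 in FoxO6-/- and WT brain, against 59.2 and 42.2 in FoxO6-/- and WT jaw. The log2 ratio was 3.40 ± 0.16 (adjusted p = 0.00857), and since both jaw signals lay below the floor this amounts to at least 5.24-fold. A further probe set of the gene gave a smaller log2 ratio of 1.77. Kcnip4, a KChIP that can slow the inactivation of Kv4 channels, had 258 (FoxO6-/-) and 253 (WT) in brain and 53.0 (FoxO6-/-) and 71.4 (WT) in jaw and a log2 ratio of 2.05 ± 0.19 (adjusted p = 0.0172), at least 2.54-fold. Kcnip2, the KChIP known for its role in the heart, had a mean below the floor and was not tested, with 133 and 122 in FoxO6-/- and WT brain, against 9.06 and 10.1 in FoxO6-/- and WT jaw. Both DPP partners were called higher in brain with jaw signals below the floor. Dpp6 had 746 and 764 in FoxO6-/- and WT brain, against 58.7 and 78.7 in FoxO6-/- and WT jaw, at least 7.5-fold (adjusted p = 0.00893), and Dpp10 had 483 and 405 in FoxO6-/- and WT brain, against 27.7 and 51.3 in FoxO6-/- and WT jaw, at least 4.4-fold (adjusted p = 0.0181).

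**Figure D2:**
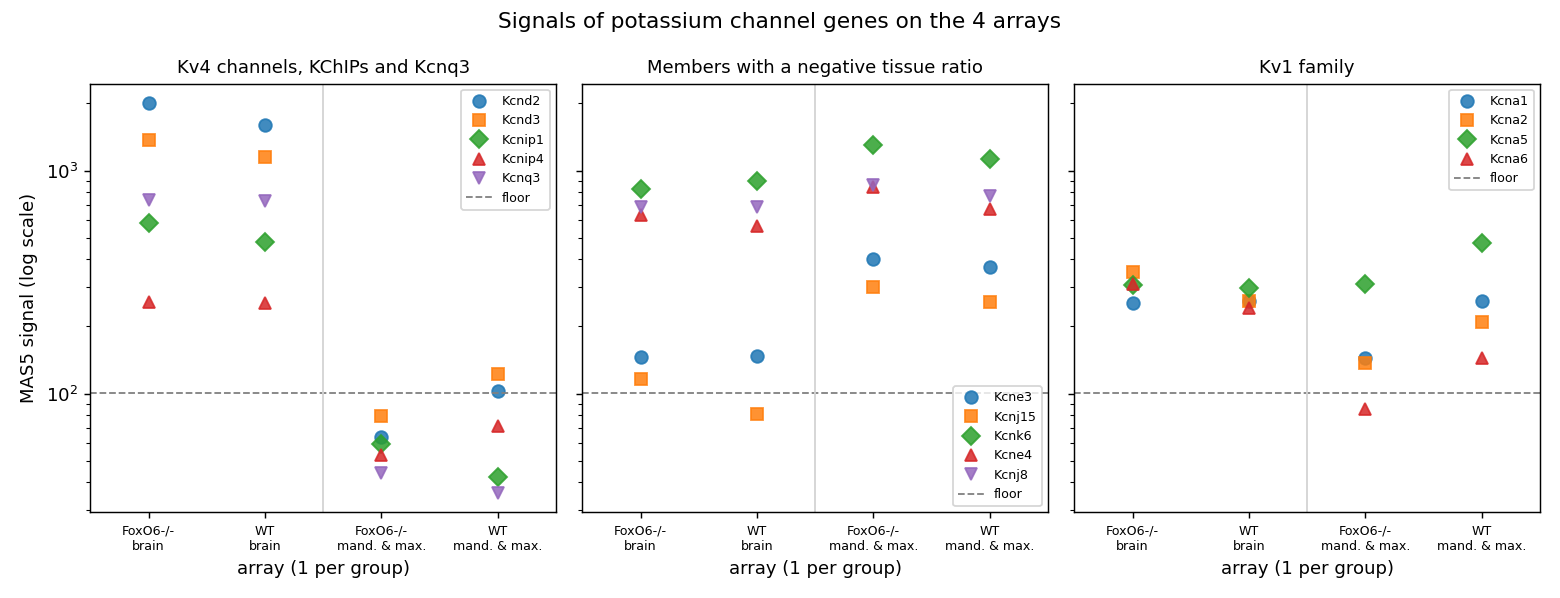
MAS5 signal on a log axis (y) on each of the 4 arrays (x), 1 point per gene and array, with the floor of 101 as a dashed line. Kcnd2, Kcnd3, Kcnip1, Kcnip4 and Kcnq3 lie above 250 in both brain arrays and below 123 in both jaw arrays, Kcne3 and Kcnj15 lie above 250 in both jaw arrays and below 150 in both brain arrays, and the 4 Kv1 genes have their lower jaw signal in FoxO6-/-.

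The start-site regions of 3 called genes are shown because Kcnd2 and Kcnd3 had the largest brain-side log2 ratios among the called genes with a promoter window and Kcnj15 the largest jaw-side one. Each is the 250 bases before the RefSeq transcription start in the GRCm38.p6 build, 5′ to 3′ on the strand of the gene, with CG dinucleotides, the positions at which DNA can be methylated, in capitals. Kcnd2 lies at chr6:21215096-21215345 (+ strand), Kcnd3 at chr3:105451640-105451889 (+ strand) and Kcnj15 at chr16:95257308-95257557 (+ strand).
Kcnd2: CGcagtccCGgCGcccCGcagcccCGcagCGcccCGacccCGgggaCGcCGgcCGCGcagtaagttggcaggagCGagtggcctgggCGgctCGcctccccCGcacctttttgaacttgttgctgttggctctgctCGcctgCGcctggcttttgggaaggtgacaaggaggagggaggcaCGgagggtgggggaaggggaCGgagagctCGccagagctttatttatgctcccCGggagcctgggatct
Kcnd3: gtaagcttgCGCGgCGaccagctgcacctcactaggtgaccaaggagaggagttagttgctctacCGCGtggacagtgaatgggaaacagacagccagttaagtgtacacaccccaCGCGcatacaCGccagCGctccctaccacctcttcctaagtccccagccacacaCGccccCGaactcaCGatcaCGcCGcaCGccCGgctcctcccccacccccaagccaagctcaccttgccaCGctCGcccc
Kcnj15: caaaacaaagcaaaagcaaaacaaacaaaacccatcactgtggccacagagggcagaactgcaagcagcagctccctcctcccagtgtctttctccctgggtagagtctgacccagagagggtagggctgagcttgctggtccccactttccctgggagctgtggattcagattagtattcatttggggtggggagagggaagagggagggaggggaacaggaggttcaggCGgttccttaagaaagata
These windows hold 22, 18 and 1 CG dinucleotides for Kcnd2, Kcnd3 and Kcnj15. Kcnc2, not called at a brain-side log2 ratio of 3.85, had 5 in the richest of its windows, which is not shown. A window was given for 64 of the 84 genes, and the median over genes of the count in the window richest in CG was 10 for potassium channel genes, against 6 for all 27025 genes with a window. It was 15 (range 6 to 30) for the 8 genes called higher in brain that have a window and 5.5 for the 2 called higher in jaw, which had 1 and 10. For 24 genes tested and not called it was 9.5, and for 30 not tested 10. A gene with more windows has more chances of a high count. The 8 brain genes had 15 windows, against 89 for the 64 potassium channel genes and 32851 for all 27025 genes. The TATA motif TATAAA, searched on both strands, was in 3.37% of the 89 windows of potassium channel genes and 12.4% of all windows, and the GC-box letters CCGCCC, which hold a CG themselves, were in 44.9% and 32.7%. The windows describe sequence alone, as the arrays measured neither methylation nor binding there.

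KCNQ channels of neurons carry the slow M-current that restrains repetitive firing. Both KCNQ genes that passed the floor were called higher in brain (8.73% of all genes), Kcnq3 after passing it through brain alone. Kcnq3 had 739.7 and 729 in FoxO6-/- and WT brain, against 43.8 and 35.8 in FoxO6-/- and WT jaw, with a log2 ratio of 4.21 ± 0.16 (adjusted p = 0.00857), at least 7.29-fold. Its 2 genotypes gave nearly the same ratio, and both jaw signals lay below the floor. Kcnq5 had 324 and 261 in FoxO6-/- and WT brain, against 121 and 117 in FoxO6-/- and WT jaw and a smaller log2 ratio of 1.30 ± 0.16 (adjusted p = 0.0272), one of the 2 brain calls made on a gene above the floor in both tissues. Kcnq1, which with a KCNE subunit carries the slow repolarising current of the heart and serves epithelia, stayed below the floor on all 4 arrays, at 13.1 (FoxO6-/-) and 66.0 (WT) in brain and 21.3 (FoxO6-/-) and 97.3 (WT) in jaw.

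The Kv3 (Shaw) channels close quickly and let fast-spiking interneurons and cerebellar cells fire at high rates. Kcnc1, for Kv3.1, had 286 and 207 in FoxO6-/- and WT brain, against 25.2 and 32.7 in FoxO6-/- and WT jaw and a log2 ratio of 3.08 ± 0.27 (adjusted p = 0.0153), at least 2.41-fold, while 2 dimmer probe sets of the gene gave 1.04 and 1.49. Without the FoxO6-/- brain array its mean of 88.3 fell below the floor and Kcnc1 was not tested, while the log2 ratio over the other arrays was 2.85. Kcnc2, for Kv3.2, had 198 and 212 in FoxO6-/- and WT brain, against 5.08 and 39.9 in FoxO6-/- and WT jaw. The groups did not overlap, the 2 jaw signals differed widely, and the log2 ratio of 3.85 ± 0.79 missed the threshold (adjusted p = 0.0659). Since both jaw signals lay below the floor the difference amounts to at least 2.03-fold. Kcnc4, for the fast-inactivating Kv3.4 of skeletal muscle and axon terminals, had 125 (FoxO6-/-) and 153 (WT) in brain and 91.4 (FoxO6-/-) and 149.9 (WT) in jaw (log2 ratio 0.24 ± 0.19, adjusted p = 0.433), and its groups overlapped.

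The remaining voltage-gated genes tested were not called between the tissues. In the EAG family, to which the cardiac hERG channel belongs, Kcnh1 had 141 and 102 in FoxO6-/- and WT brain, against 135 and 127 in FoxO6-/- and WT jaw, a log2 ratio of -0.13 ± 0.18 (adjusted p = 0.649) with overlapping groups, and Kcnh8 had 184 and 119 in FoxO6-/- and WT brain, against 36.9 and 70.5 in FoxO6-/- and WT jaw (at least 1.47-fold, log2 ratio 1.53 ± 0.45, adjusted p = 0.12). Among the Kv1 (Shaker) channels, which line axons and presynaptic endings, Kcna5, the one best known from smooth and cardiac muscle, had 308 and 297 in FoxO6-/- and WT brain, against 311 and 472 in FoxO6-/- and WT jaw and a log2 ratio of -0.34 ± 0.23 (adjusted p = 0.379), so that 3 of its 4 signals lay close together and WT jaw stood above them. The Kv modifiers are silent alone and alter Kv2 channels by joining them. Of 9 such genes 2 passed the floor: Kcns2 had 339 and 212 in FoxO6-/- and WT brain, against 53.3 and 86.0 in FoxO6-/- and WT jaw (at least 2.66-fold, log2 ratio 1.98 ± 0.40, adjusted p = 0.0633), and Kcnv1 had 169 and 111 in FoxO6-/- and WT brain, against 58.4 and 65.9 in FoxO6-/- and WT jaw (at least 1.36-fold, log2 ratio 1.14 ± 0.26, adjusted p = 0.0767). Both were higher in each brain array than in either jaw array without passing the test.

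Among the leak channels, Kcnk10, for the mechanically and lipid-gated TREK-2, had 296 and 329 in FoxO6-/- and WT brain, against 39.8 and 64.5 in FoxO6-/- and WT jaw. It was called higher in brain at a log2 ratio of 2.62 ± 0.21 (adjusted p = 0.0133), at least 3.1-fold. Its relative Kcnk2, for TREK-1, had 645 and 491 in FoxO6-/- and WT brain, against 312 and 438 in FoxO6-/- and WT jaw and was not called (log2 ratio 0.61 ± 0.28, adjusted p = 0.24), although each brain array exceeded both jaw arrays. Kcnk1, for TWIK-1, had 1246 (FoxO6-/-) and 926 (WT) in brain and 876 (FoxO6-/-) and 981 (WT) in jaw and overlapping groups (log2 ratio 0.21 ± 0.22, adjusted p = 0.549). Kcnk6, for TWIK-2, a channel of epithelia, vessels and macrophages, ran the other way with 824 and 898 in FoxO6-/- and WT brain, against 1300.2 and 1129 in FoxO6-/- and WT jaw, and its log2 ratio of -0.49 ± 0.17 missed the threshold (adjusted p = 0.155). Kcnk3, for the acid-sensitive TASK-1, had 34.9 and 284 in FoxO6-/- and WT brain, against 42.1 and 55.1 in FoxO6-/- and WT jaw, so that WT brain alone stood above the floor (log2 ratio 1.05 ± 0.73, adjusted p = 0.391). Kcnk7, picked out after its values were seen, was not tested because its mean lay below the floor, and had 18.3 and 14.9 in FoxO6-/- and WT brain, against 111 and 102 in FoxO6-/- and WT jaw, at least 1.06-fold higher in jaw.

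Of 15 inward rectifier genes 6 passed the floor, 1 was called higher in jaw and 0 higher in brain (6.48% and 8.73% of all genes). Kcnj3, for a G-protein-gated subunit that slows neurons and the heartbeat, had 275 and 195 in FoxO6-/- and WT brain, against 108 and 111 in FoxO6-/- and WT jaw, and Kcnj10, for the Kir4.1 of astrocytes that clears potassium around neurons, had 198 and 199 in FoxO6-/- and WT brain, against 119 and 88.2 in FoxO6-/- and WT jaw. Each was higher in both brain arrays than in both jaw arrays, and neither was called (log2 ratios 1.08 ± 0.21, adjusted p = 0.0574, and 0.96 ± 0.19, adjusted p = 0.0615). Kcnj13, for the Kir7.1 of choroid plexus and pigment epithelium, had 143 and 181 in FoxO6-/- and WT brain, against 61.0 and 117 in FoxO6-/- and WT jaw (log2 ratio 0.93 ± 0.22, adjusted p = 0.0821). Choroid plexus markers summed to 21754 and 27758 in FoxO6-/- and WT brain, against 3907 and 4732 in FoxO6-/- and WT jaw. Ttr made up most of the brain sums, at 18837 and 24775, against 51.0 and 30.6 in FoxO6-/- and WT jaw. Folr1 was also higher in brain (log2 ratio 1.48), while Aqp1, Clic6 and Kl were lower there (-0.58, -0.59 and -0.63). The part of these markers in the Kcnj13 values was not tested. Kcnj15, for the Kir4.2 of secretory epithelia, had 116 and 81.3 in FoxO6-/- and WT brain, against 299.6 and 257 in FoxO6-/- and WT jaw and was called higher in jaw, with a log2 ratio of -1.52 ± 0.17 (adjusted p = 0.0219). Markers of stratified epithelium, the tissue of skin and oral lining, summed to 10226 and 6636 in FoxO6-/- and WT brain, against 66474 and 44984 in FoxO6-/- and WT jaw, and their part in the Kcnj15 difference was not tested. Kcnj8, the pore of the vascular ATP-sensitive channel, had 689 and 688 in FoxO6-/- and WT brain, against 861 and 767 in FoxO6-/- and WT jaw (log2 ratio -0.24 ± 0.15, adjusted p = 0.356), and Kcnj11, the pore of the pancreatic and muscle form, had 686 (FoxO6-/-) and 657 (WT) in brain and 624 (FoxO6-/-) and 601 (WT) in jaw (log2 ratio 0.13 ± 0.15, adjusted p = 0.581). Abcc9, the regulatory subunit that joins Kcnj8, had 1368 and 1594 in FoxO6-/- and WT brain, against 1722 and 2221 in FoxO6-/- and WT jaw and was not called either (log2 ratio -0.41 ± 0.15, adjusted p = 0.176).

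Of the calcium-activated group, Kcnn2, for the small-conductance SK2 channel behind the slow pause after a spike, had 171 and 165 in FoxO6-/- and WT brain, against 76.5 and 59.2 in FoxO6-/- and WT jaw and a log2 ratio of 1.32 ± 0.17 (adjusted p = 0.0283), at least 1.67-fold. Kcnu1, for the pH-sensitive Slo3 known from sperm, had 169 and 191 in FoxO6-/- and WT brain, against 59.6 and 52.5 in FoxO6-/- and WT jaw on its single probe set and was called higher in brain (log2 ratio 1.69 ± 0.18, adjusted p = 0.0202), at least 1.79-fold. Kcnn2 without the FoxO6-/- brain array and Kcnu1 without the WT brain array fell below the floor in the mean (100.2 and 93.8) and were then not tested, at log2 ratios of 1.29 and 1.60 over the remaining arrays. Kcnn4, the intermediate-conductance channel of blood and epithelial cells, had 368 and 357 in FoxO6-/- and WT brain, against 232 and 298 in FoxO6-/- and WT jaw (log2 ratio 0.46 ± 0.18, adjusted p = 0.192), and Kcnt2, a sodium-activated channel of neurons, had 190.1 and 169 in FoxO6-/- and WT brain, against 126 and 145 in FoxO6-/- and WT jaw (log2 ratio 0.41 ± 0.18, adjusted p = 0.221).

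Kcnma1, the BK channel, which opens with both voltage and calcium in neurons and smooth muscle, gave opposite answers from different probe sets. The brightest had 264 and 296 in FoxO6-/- and WT brain, against 278 and 404 in FoxO6-/- and WT jaw, a log2 ratio of -0.26 ± 0.18 (adjusted p = 0.38) with overlapping groups. A second had 241 and 349 in FoxO6-/- and WT brain, against 113 and 140.2 in FoxO6-/- and WT jaw, a log2 ratio of 1.20, and another had 216 and 192 in FoxO6-/- and WT brain, against 84.4 and 88.3 in FoxO6-/- and WT jaw, a log2 ratio of 1.24. The fourth ran against these with 61.5 and 132 in FoxO6-/- and WT brain, against 193 and 159 in FoxO6-/- and WT jaw, a log2 ratio of -0.96. Of the 9 genes read by more than 1 probe set above the floor, Kcnma1 and Kcnk1 were the 2 whose probe sets differed in sign, and those of Kcnk1 differed by little, at 0.21 and -0.02. For Kcnma1 the direction between tissues therefore depended on which probe set was read.

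**Figure D3:**
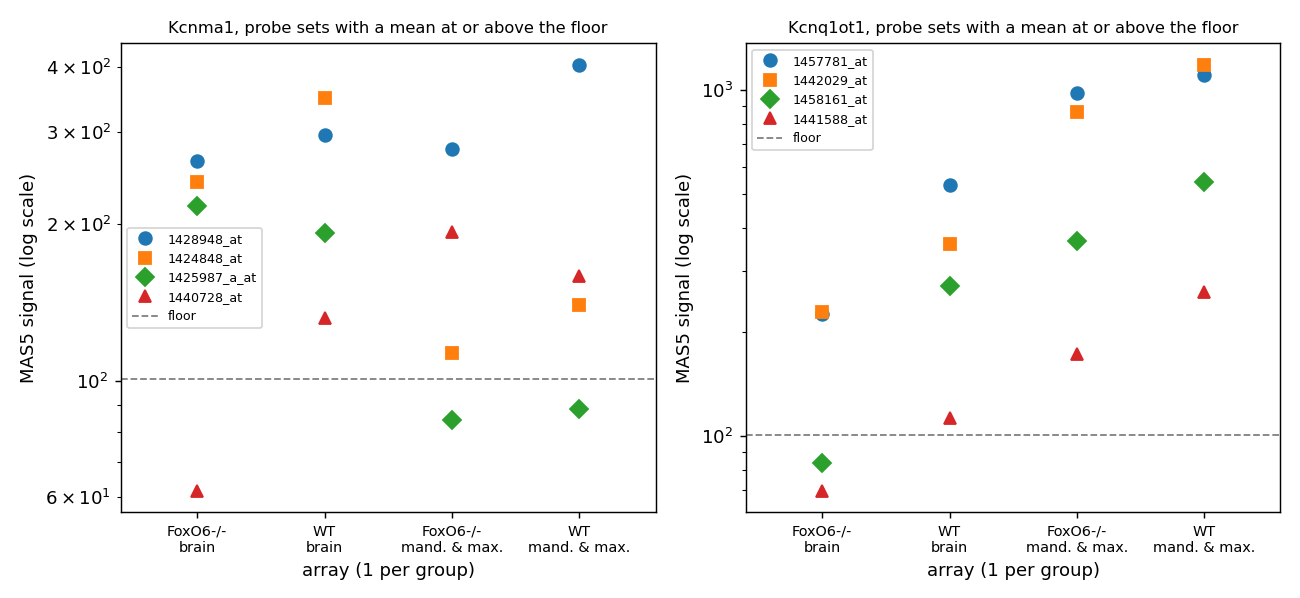
MAS5 signal on a log axis (y) on each of the 4 arrays (x) for the probe sets of Kcnma1 and Kcnq1ot1 with a mean at or above the floor of 101 (dashed line), 1 marker per probe set. The 4 probe sets of Kcnma1 run in opposite directions between brain and jaw, with log2 ratios between -0.96 and 1.24, whereas those of Kcnq1ot1 are all lower in brain and lowest in FoxO6-/- brain.

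Auxiliary subunits gave calls in both directions. Kcnab1, a cytoplasmic beta subunit that confers fast inactivation on Kv1 channels, had 274 and 216 in FoxO6-/- and WT brain, against 86.0 and 99.3 in FoxO6-/- and WT jaw and a log2 ratio of 1.40 ± 0.21 (adjusted p = 0.0369), at least 2.42-fold. Kcnmb4, the neuronal beta subunit of the BK channel, had 866 and 667 in FoxO6-/- and WT brain, against 357 and 395 in FoxO6-/- and WT jaw and just missed the threshold (log2 ratio 1.02 ± 0.20, adjusted p = 0.0625). Kcne3, a single-pass subunit that holds KCNQ1 open in epithelia, had 146 and 147 in FoxO6-/- and WT brain, against 402 and 368 in FoxO6-/- and WT jaw and was called higher in jaw, with a log2 ratio of -1.39 ± 0.15 (adjusted p = 0.0214). Kcne4, an inhibitory relative, had 635 and 564 in FoxO6-/- and WT brain, against 844 and 675 in FoxO6-/- and WT jaw and was not called (log2 ratio -0.34 ± 0.15, adjusted p = 0.231). Kcne2, known from choroid plexus, stomach and heart, had a mean below the floor, with 116 and 176 in FoxO6-/- and WT brain, against 4.13 and 1.57 in FoxO6-/- and WT jaw.

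Kcnq1ot1 is a long noncoding RNA made antisense to Kcnq1 from the paternal chromosome, where it silences neighbouring genes. Its brightest probe set had 226 and 532 in FoxO6-/- and WT brain, against 982 and 1105 in FoxO6-/- and WT jaw, the groups did not overlap, and the log2 ratio of -1.59 ± 0.32 missed the threshold (adjusted p = 0.0648). All 4 of its probe sets with a mean above the floor were lower in brain, with log2 ratios between -1.83 and -1.26. Kcnmb4os2, annotated as a transcript opposite Kcnmb4, had 243 and 134 in FoxO6-/- and WT brain, against 61.6 and 86.9 in FoxO6-/- and WT jaw (at least 1.79-fold, log2 ratio 1.30 ± 0.39, adjusted p = 0.126).

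Some members lie next to each other in the genome. Kcna5, Kcna1 and Kcna6 follow each other on chromosome 6, and their log2 ratios of brain over jaw were -0.34, 0.41 and 1.30, none of them called. On chromosome 16 Kcnj15, called higher in jaw, neighbours Kcnj6, whose signals stayed below the floor on all arrays.

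Proteins that bind potassium channels were followed on a list of their own. Of 16 such partner genes measured, 13 passed the floor, 8 were called higher in brain and 0 higher in jaw (8.73% and 6.48% of all genes), with a median log2 ratio of 1.15. Of the 8, 3 (Dpp6, Dpp10 and Cntn2) passed the floor through brain alone and so had to differ. Beside Dpp6 and Dpp10 they included Cntnap2, which gathers Kv1 channels beside the node of Ranvier, with 1388 and 1160.4 in FoxO6-/- and WT brain, against 119 and 127 in FoxO6-/- and WT jaw (log2 ratio 3.37 ± 0.17), and its partner Cntn2, with 612 and 604 in FoxO6-/- and WT brain and both jaw signals below the floor, at least 6.04-fold higher in brain. Other ion channel families gave 5 of 8 tested voltage-gated sodium channel genes called higher in brain and 0 in jaw (median log2 ratio 2.05), 5 of 18 voltage-gated calcium channel genes in brain and 2 in jaw (median 0.58), and 3 of 5 CLC chloride channel genes in brain and 0 in jaw (median 0.86). Of the brain calls, 3 of 5 sodium channel genes, 2 of 5 calcium channel genes and 0 of 3 CLC genes had passed the floor through brain alone, and the shares of all genes called are those given for the partners. The brain share of the potassium channel genes was not tested against theirs.

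A list of 9 potassium channel genes whose human counterparts are altered in conditions with facial or dental features was fixed alongside. Kcnk9 had no probe set naming it alone, and of the 8 measured genes Kcnj8, Kcnh1 and Kcnma1 passed the floor. The others were Kcnj2, Kcnj6, Kcnk4, Kcnn3 and Kcnq1. In the limma fit 0 genes of the list were called between the tissues (15.2% of all genes) and 0 for genotype (0% of all genes). Kcnj2, the classical inward rectifier of muscle, was at 1.82 and 2.73 in FoxO6-/- and WT brain, against 1.12 and 1.90 in FoxO6-/- and WT jaw, Kcnn3, a small-conductance channel, did not exceed 6.56 on any array, Kcnk4, the leak channel TRAAK, did not exceed 39.7, and Kcnj6, a G-protein-gated rectifier, did not exceed 65.6. At these signals a difference between groups was not detectable.

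FoxO6-/- and WT jaw differed by less than 2-fold for every potassium channel gene above the floor there, as read by its chosen probe set. Of 31 such genes 0 lay 2-fold or more above WT and 0 as far below it (0.591% and 1.69% of all genes). A dimmer probe set of Kcna2, also above the floor in jaw, did pass 2-fold. It had 88.6 in FoxO6-/- jaw and 185 in WT jaw, a log2 ratio of -1.07. Of the 31, 21 had a lower and 10 a higher signal in FoxO6-/-, where 51.3% of all genes were lower. The log2 ratios ran between -0.85 and 0.43, and the median was -0.17, against -0.01 for all genes. These are ratios of 1 array to 1 and carry no test. Different probe sets of one gene gave log2 ratios with an SD of 0.32 in jaw and 0.33 in brain, which measures probe error alone.

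The 4 Kv1 genes above the floor were all lower in FoxO6-/- jaw, a group picked out after its values were seen. Kcna1, mutated in a human episodic ataxia, had 144 in FoxO6-/- jaw and 259.6 in WT jaw, a log2 ratio of -0.85, and a second probe set gave -0.51. Kcna2, its usual partner in axons, had 137 in FoxO6-/- jaw and 209.8 in WT jaw, a log2 ratio of -0.61, and a second probe set gave -1.07. Kcna5 had 311 in FoxO6-/- jaw and 472 in WT jaw (-0.60) and Kcna6 had 85.3 in FoxO6-/- jaw and 144 in WT jaw (-0.75). In brain the same genes had log2 ratios of -0.04, 0.43, 0.05 and 0.36. Other voltage-gated genes leaned the same way in jaw, with Kcnc4 at 91.4 in FoxO6-/- jaw and 149.9 in WT jaw (-0.71) and Kcnd3 at 79.3 in FoxO6-/- jaw and 122 in WT jaw (-0.62). Of the 6 inward rectifier genes above the floor in jaw 4 had a higher signal in FoxO6-/-. Kcnj10 had 119 in FoxO6-/- jaw and 88.2 in WT jaw (0.43), Kcnj8 had 861 in FoxO6-/- jaw and 767 in WT jaw (0.17), Kcnj15 had 299.6 in FoxO6-/- jaw and 257 in WT jaw (0.22) and Kcnj11 had 624 in FoxO6-/- jaw and 601 in WT jaw (0.05). The auxiliary Kcne4 had 844 in FoxO6-/- jaw and 675 in WT jaw (0.32). All 10 neuron markers above the floor in jaw were also lower in FoxO6-/- jaw (median log2 ratio -0.78), as were 7 of 7 cartilage markers (median -0.74), and the ratio of the 3′ to the 5′ probe set of Actb was 3.37 on the FoxO6-/- jaw array, against 2.23 on the WT jaw array. Their part in the Kv1 values was not tested.

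**Figure D4:**
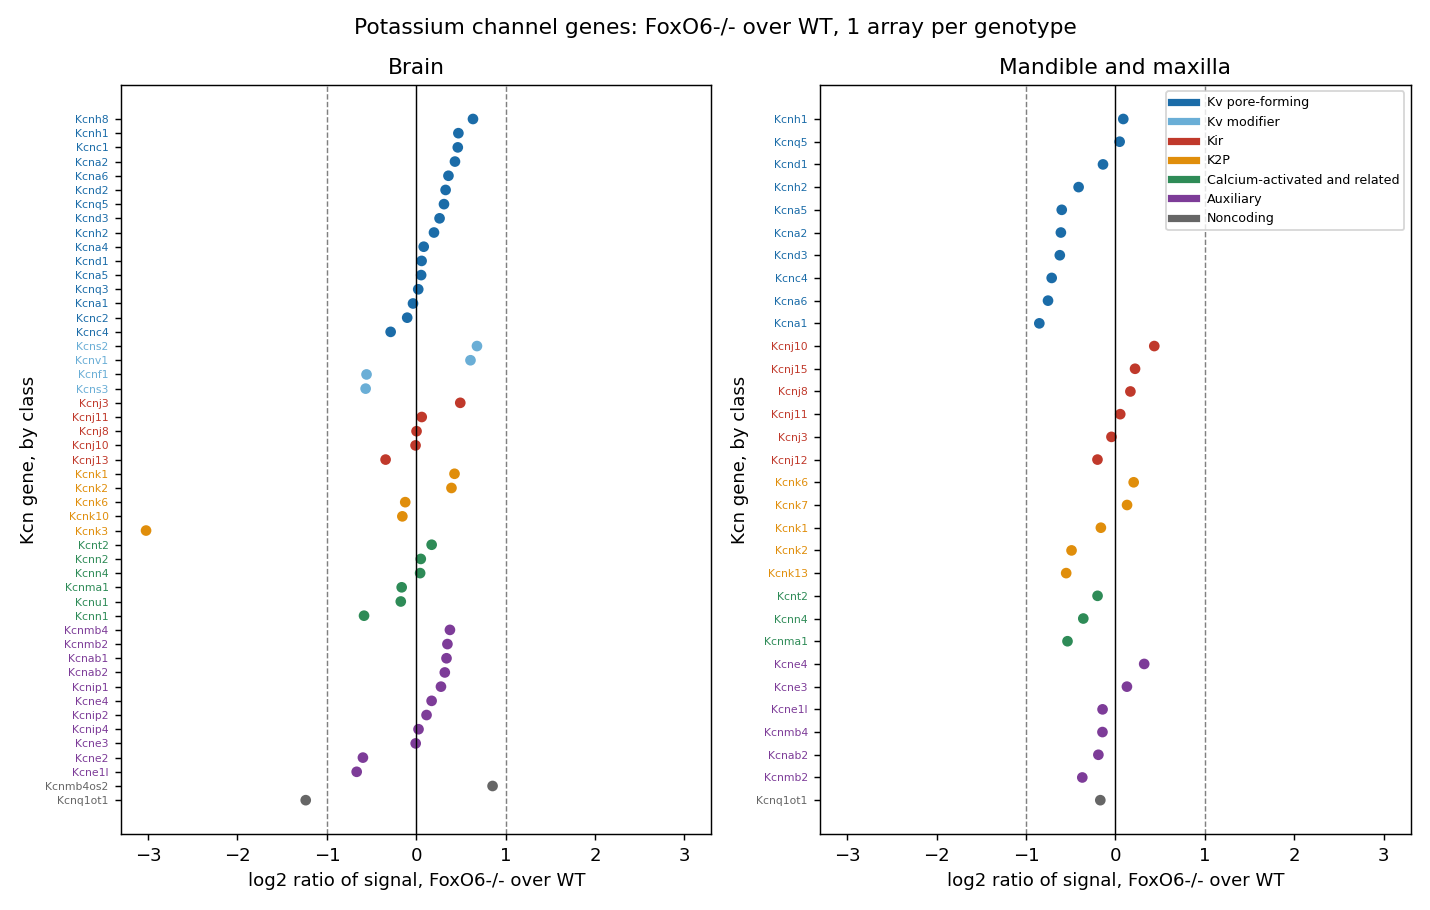
Log2 ratio of MAS5 signal, FoxO6-/- over WT (x axis), for potassium channel genes with a mean at or above the floor in brain (49 genes) and in jaw (31 genes), by class (y axis), 1 array per genotype. Dashed lines mark 2-fold. Kcnk3 and Kcnq1ot1 in brain are the genes beyond them, and 8 of 10 voltage-gated pore genes lie left of 0 in jaw.

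In brain, 49 genes were above the floor, of which 2 lay at least 2-fold below WT in FoxO6-/- and 0 as far above it (2.03% and 1.13% of all genes). Of the 49, 17 had a lower and 32 a higher signal in FoxO6-/-, where 42.7% of all genes were lower. The median log2 ratio was 0.06, against 0.05 for all genes. Kcnk3 had 34.9 in FoxO6-/- brain and 284 in WT brain, at least 2.82-fold lower in FoxO6-/- since the FoxO6-/- signal lay below the floor. Its other probe sets were below the floor on both arrays, so a single probe set carried this difference. Kcnq1ot1 had 226 in FoxO6-/- brain and 532 in WT brain, a log2 ratio of -1.24, and 2 dimmer probe sets gave -0.65 and -1.70. The Kv4 genes called higher in brain than in jaw differed by less than 2-fold between genotypes there, with Kcnd2 at 2008 in FoxO6-/- brain and 1599 in WT brain (log2 ratio 0.33) and Kcnd3 at 1376 in FoxO6-/- brain and 1148 in WT brain (0.26), as did the KChIP gene Kcnip1 at 581 in FoxO6-/- brain and 479.8 in WT brain (0.28). Cartilage markers, which do not belong to brain, summed to 46691 in FoxO6-/- brain and 25163 in WT brain, and neuron markers, lower in FoxO6-/- for 1 of 12, to 70445 in FoxO6-/- brain and 55474 in WT brain. Their part in these values was not tested.

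With both tissues in one limma fit, 0 potassium channel genes and 0 of all genes were called for genotype (0% of genes, smallest adjusted p 0.902). At an unadjusted p under 0.05 stood 588 genes (4.68%) and 0 potassium channel genes. The smallest p among potassium channel genes belonged to Kcnj13, at 61.0 in FoxO6-/- jaw and 117 in WT jaw and 143 in FoxO6-/- brain and 181 in WT brain, and to Kcnc4, at 125 in FoxO6-/- brain and 153 in WT brain, both lower in FoxO6-/- in each tissue.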

How the data were processed

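The deposited values were MAS5 signals, an intensity per probe set on a linear scale that the authors had scaled on each array to a trimmed mean of 500. Of 45101 probe sets, 34945 name 1 gene in the platform annotation. Symbols were checked through Entrez IDs against RefSeq (84 of 84 matched). Log2 signals were fitted with limma 3.58.1 in R 4.3.3 (tissue and genotype terms, eBayes, 1 residual degree of freedom, Benjamini-Hochberg over 12569 genes), the package the methods name, and the script was tested on simulated data. The spread behind its p-values is the difference of the genotype effect between the tissues, which eBayes draws toward a value shared by all genes. It does not measure the spread between animals or between repeated arrays of a group. An exact two-sided permutation test of 2 against 2 arrays could not go below 0.333. Genotype ratios within a tissue used genes whose mean over that tissue's arrays reached the floor. A gene below the floor on both arrays of a tissue was given as a bound, with the floor in place of lower signals, and any log2 ratio printed beside it is the fitted value. The number of arrays limits the precision.

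Members and lists were chosen with earlier results of these data known. In each class the 3 members with the highest and the 2 with the lowest tissue ratio, members at least 2-fold different between genotypes, the 2 with the smallest genotype p and the facial list were named by rule (34 genes). Kcnd1, Kcnh8, Kcnj11, Kcnip2, Kcne2, Kcnmb4, Kcnmb4os2, Kcnk7, the called members outside the rule and the Kv1 genes were chosen after their values were seen. Of 13 marker lists, those for smooth muscle and pericyte and for macrophage are not given. The alternatives were scaling, floor, probe set, model, call rule and leaving out an array.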

Additional observations from a re-analysis of the deposited data

Results flagged for a closer look

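In 4 of the 27 members above the floor in both tissues the FoxO6-/- and WT arrays differed by at least 1.5-fold in one tissue and with the opposite sign in the other. As log2 of FoxO6-/- over WT, the values were -0.61 in jaw and 0.43 in brain for Kcna2, -0.60 in jaw and 0.05 in brain for Kcna5, -0.75 in jaw and 0.36 in brain for Kcna6, and -0.62 in jaw and 0.26 in brain for Kcnd3. At any size, 14 of the 27 members were lower in FoxO6-/- jaw and higher in FoxO6-/- brain, as were 3200 of 11494 genes. The share of all genes meeting the 1.5-fold rule was not counted. With 1 array per genotype and tissue the difference between tissues was not tested. Neuron markers also had a negative median in jaw (-0.78) and a positive one in brain (0.37), and so had cartilage markers (-0.74 in jaw, with 7 of 7 lower in FoxO6-/-, and 0.93 in brain, with 0 of 7 lower). The same signs were seen for olfactory neuron (-1.84 in jaw, 0.42 in brain), astrocyte and radial glia (-0.90, 0.29) and oligodendrocyte lineage markers (-0.25, 0.19). Endothelium markers had the reverse (0.21 in jaw, -0.25 in brain), and the other lists had neither order.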

How the results depend on the processing

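The 11 brain and 2 jaw calls depended on how dim signals and probe sets were treated. The brain count was 0 with no floor, 3 with the floor at the 75th percentile (524), 17 with dim signals raised to the floor, 3 with probe sets averaged within genes and 18 with tissue as the only term. Of all genes tested, limma called 15.2% in either direction in the main fit. That share was 0% with no floor and 21.9% at the 75th percentile. It was 21.7% with raised signals, 10.5% with averaged probe sets and 21.5% with tissue alone. The jaw count was 0 with no floor and 1 at the 75th percentile. It was also 1 when probe sets with identifiers ending in _a_at, _s_at or _x_at were left out. Every probe set of Kcne3 and of Kcnab1 ends in _a_at, so their calls were lost there because these genes were not tested. A higher floor and averaged probe sets leave fewer members to test (9 and 24), and the cause of the other shifts was not tested. Leaving out 1 array gave 10 to 16 brain and 2 to 3 jaw calls, and the 3 calls lost in this way were of genes no longer tested. Quantile normalization and median centring kept all 13 calls. The limma genotype count was 0 under every alternative run. With no floor all 84 members entered the 2-fold genotype counts, those with dim signals included. The counts were then 6 higher and 9 lower in jaw, and 6 higher and 8 lower in brain. The share of all genes 2-fold different with no floor was not counted, so these counts have no background. The 2 genes lower in FoxO6-/- brain became 0 at the 75th percentile and with averaged probe sets. Median centring moved the median genotype ratio of all genes to 0.13 in jaw and 0.20 in brain. In jaw 19 of 29 members were then lower in FoxO6-/- (33.9% of all genes), and in brain 12 of 51 (26.1% of all genes). The 4 Kv1 genes stayed negative in jaw under both scalings, from -0.76 to -0.47. With averaged probe sets Kcna5 alone of them was above the floor in jaw, at -0.60. At the 75th percentile they were all below the floor there. Tissue ratios near 0 changed sign without 1 array: Kcnh1 ranged between -0.37 and 0.10 (positive without WT brain), Kcnk1 between -0.0012 and 0.43 (negative without FoxO6-/- brain), Kcnma1 between -0.53 and 0.0060 (positive without WT jaw) and Kcnc4 between -0.11 and 0.60 (negative without FoxO6-/- jaw). The genotype term already pairs brain with jaw within a genotype, and the count of 18 is that of the fit without this pairing.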
